A study of Homo sapiens with 11 samples.

Results

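The CTCF-bound sites described here lie within 2 Mb of a chromosome end on chromosomes 1 to 22, counted from the first or last base of hg38. The ends of the short arms of chromosomes 13, 14, 15, 21 and 22 were left out, which leaves 39 ends and 78 Mb. Of the 69490 autosomal summits in 3 CTCF lists, 2150 were subtelomeric by this rule: 584 of 19044 summits of the WT list, 980 of 31112 of the ORC2 deletion list and 586 of 20810 of the ORC2 rescue list. A summit is the base at which a called peak is highest. The other 67340 autosomal summits were the comparison. The rule uses position alone and no measured value.

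CTCF was mapped by CUT&RUN, in which an antibody directs a nuclease to cut out the DNA around a bound protein. All cells were HCT116 p53-/-, a human colorectal cancer line without p53, and all 3 genotypes share that background. WT is this parental line. ORC2 deletion (ORC2-/-) is a single CRISPR/Cas9 clone of it, and ORC2 rescue cells were clonally selected after ORC2, with its untranslated regions, was returned on the plasmid pLHCXORC2. Each genotype had 2 CTCF libraries and 2 IgG libraries, except ORC2 rescue, with 1 IgG library, so the series has 11 libraries. Each list names a genotype and no replicate and was taken as the pool of its libraries. Clone and genotype therefore cannot be told apart, no value below has a replicate spread, and the depth of the libraries is unknown. Intervals are 95% intervals for counting error alone.

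CTCF is a zinc finger protein that binds a long, directional DNA motif, bounds chromatin loops and insulates genes from enhancers. Human subtelomeres, the regions between the telomere repeats and the unique part of a chromosome arm, hold blocks duplicated between chromosomes and families of genes and pseudogenes. CTCF binds in the outermost of these blocks, near the start sites of the telomeric repeat-containing RNA TERRA, and has been linked to TERRA transcription and to telomere protection. ORC2 is a subunit of the origin recognition complex, which marks the places where DNA replication can start.

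The CTCF core consensus can be seen in 4 subtelomeric promoters that hold both a CTCF summit and this consensus. They are all the subtelomeric promoters examined that hold both. The summits in these promoters lay 56 to 185 bp from the consensus match, outside the stretches printed. The sequences are from RefSeq, build GRCh38.p14, 5′ to 3′ on the strand given, and the capitals mark the 12 bases that match the consensus.
GPER1, chr7:1087067-1087096, plus strand: ttcaaatggCCAGTAGGGGGCgcactcgga
MELTF, chr3:197029898-197029927, minus strand: gggaggcctCCAGCAGGGGGCgcgccgggg
ZC3H18-DT, chr16:88562086-88562115, minus strand: ctcaaagagCCACCAGAGGGCactcccact
SDCBP2, chr20:1313663-1313692, plus strand: tccacgcggCCACTAGGGGGCgtcaaagtc

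At GPER1, which encodes a membrane oestrogen receptor, all 3 lists had a summit in the promoter. Its summit value, which is the peak's −log10 q and was deposited by the authors, was 17.9 in WT, 11.6 in deletion and 15.8 in rescue cells. The promoter of MELTF, the gene of melanotransferrin, had a WT summit of 7.56 and a deletion summit of 6.45, with none in the rescue list. ZC3H18-DT, a transcript divergent from ZC3H18, had a WT summit of 6.69 and a rescue summit of 10.8 in its promoter. The deletion summit of that site, with 13.8, lay just outside the promoter window, so the site is in all 3 lists like that of GPER1. In the promoter of SDCBP2, which encodes syntenin-2, the deletion list alone had a summit, with a value of 8.59. Summit values rest on each list's own depth, so they rank summits within a list and give no change between lists.

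Few promoters held this consensus. Of 1993 subtelomeric promoters of 300 bases (250 before to 50 after the start), 13 did on either strand, or 0.652% (0.382 to 1.11), against 0.453% of 31565 other autosomal promoters. Among the 78 subtelomeric promoters with a summit of any list, 4 held it (5.13%, 2.01 to 12.5), against 3.70% of 2082 other promoters with a summit. The median GC content was 66.3% in subtelomeric promoters and 58.0% in the others. Promoters of chromosome 8 were not used here. A match is a description of the letters and not evidence that CTCF binds through them.

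In the windows of 2 Mb, summits of the WT and ORC2 deletion lists were denser than over the other autosomal sequence as a whole. The windows were not denser than the sequence next to them, as given below. The deletion list was the densest in the windows and elsewhere. The WT list had 7.49 subtelomeric summits per Mb (6.89 to 8.12) against 6.45 elsewhere on the autosomes. The deletion list had 12.6 per Mb (11.8 to 13.4) against 10.6, and the rescue list 7.51 (6.92 to 8.15) against 7.07. The interval of the rescue list includes the density elsewhere, and those of WT and ORC2 deletion do not. These calls depend on the setting. With windows of 1 Mb, or with values of at least 10 alone, the intervals of the WT fold (1.05, 0.934 to 1.19, and 1.10, 0.925 to 1.31) and of the deletion fold (1.08, 0.985 to 1.19, and 1.06, 0.9498 to 1.18) include 1. Without the ends of chromosome 6 that of the rescue fold (1.10, 1.01 to 1.19) leaves out 1. The higher density was not confined to the windows. At 2000 to 5000 kb from the ends the WT, deletion and rescue densities were 8.18, 13.46 and 8.89 per Mb. At 5000 to 10000 kb they were 7.805, 12.78 and 8.61. Each was above the density of the same list in the windows. The window intervals of WT and deletion include the values of the farther zone and leave out those of the nearer. That of rescue leaves out both. All bases of the assembly were counted, gaps included.

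Subtelomeric windows are gene-rich. They held 16.1 protein-coding genes per Mb, 1257 genes in all, against 6.33 per Mb elsewhere. Set against genes, subtelomeric summits were fewer: 0.465 WT summits per protein-coding gene against 1.02 elsewhere, 0.780 against 1.67 in the deletion list, and 0.466 against 1.117 in the rescue list.

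The summits were not spread evenly within the windows. In the outermost 100 kb of the 39 ends, the WT, deletion and rescue lists had 14, 21 and 14 summits, or 3.59 (1.963 to 6.023), 5.39 (3.33 to 8.23) and 3.59 (1.963 to 6.023) per Mb. Between 100 and 250 kb the densities were 5.64, 8.55 and 4.44 per Mb, and between 250 and 500 kb 5.74, 11.5 and 6.97. From 500 kb to 1 Mb they were 8.36, 13.5 and 8.36, close to the 8.18, 13.5 and 8.89 per Mb found at 2 to 5 Mb. The higher density of the windows as a whole therefore comes from their inner part. The outer 0.5 Mb lay below the density elsewhere in WT (fold 0.814, 0.671 to 0.988) and rescue cells (0.781, 0.646 to 0.943). In the deletion list the fold was 0.884, with an interval that includes 1 (0.764 to 1.02). Its zone of 250 to 500 kb, at 11.5 per Mb, was above the 10.55 of other autosomal sequence.

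**Figure D1:**
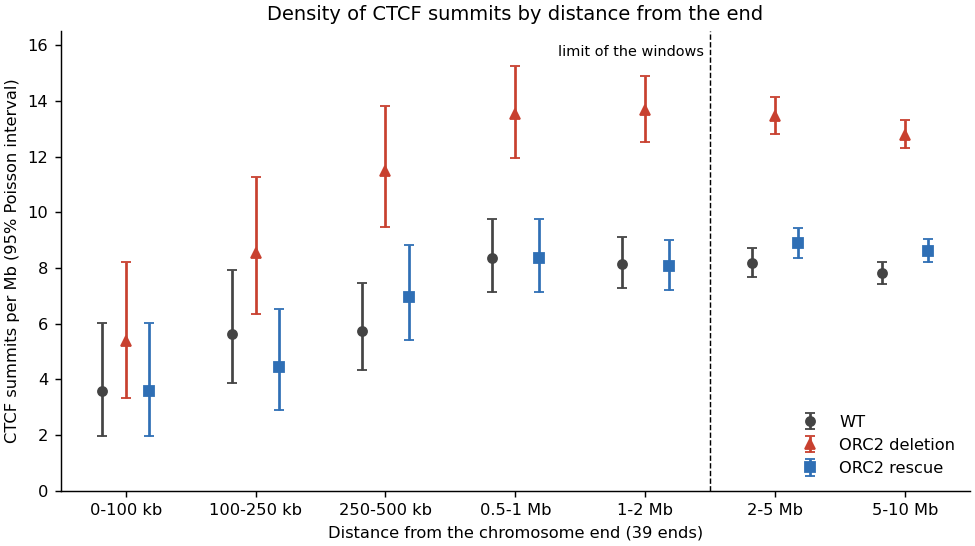
CTCF summits per Mb (vertical axis) in zones of distance from the chromosome end (horizontal axis), summed over 39 ends, for the WT, ORC2 deletion and ORC2 rescue lists; bars are 95% Poisson intervals. All 3 lists have their lowest density in the outermost 100 kb (3.59, 5.39 and 3.59 per Mb), and the ORC2 deletion list is the highest in every zone.

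The deletion list was longer than the WT list by about the same factor near the ends and elsewhere. It had 1.68 times as many subtelomeric summits as the WT list (1.52 to 1.86), against 1.64 times for other autosomal summits. The rescue list had 1.00 times as many (0.895 to 1.13), against 1.10 times elsewhere. The zone of 250 to 500 kb had the largest ratio of deletion to WT, at 2.00, from 112 and 56 summits, and the outermost 100 kb had 1.50, from 21 and 14.

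Summit values were lower near the ends in the deletion list. The median −log10 q of subtelomeric summits was 6.10 in the WT list (6.22 elsewhere), 7.66 in the deletion list (8.12 elsewhere) and 6.29 in the rescue list (6.63 elsewhere). The interval of the subtelomeric median, less the median elsewhere taken as fixed, leaves out 0 in the deletion list (-1.02 to -0.06). It includes 0 in the WT list (-0.52 to 0.27) and the rescue list (-0.73 to 0.09). The calls change with the window. With 0.5 Mb the deletion interval includes 0 (-1.29 to 0.19). The rescue interval leaves out 0 with 0.5 Mb (-1.875 to -0.41) and with 1 Mb (-1.43 to -0.34). Values of at least 10 were reached by 22.4% of subtelomeric WT summits (19.2 to 26.0) and 23.7% of the others. In the deletion list the shares were 35.3% (32.4 to 38.4) and 39.8%, and in the rescue list 25.3% (21.9 to 28.9) and 27.0%. Only the deletion interval leaves out the share elsewhere. The highest autosomal summits lay outside the windows, where most summits lie. The highest value was 59.4 near the ends and 728 elsewhere in WT, 108 and 1461 in ORC2 deletion, and 72.7 and 1585 in rescue cells.

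The 39 ends differed widely in how many summits they held. The long-arm end of chromosome 8, 8q, had the most WT summits, 39, with 54 deletion and 45 rescue summits, followed by 9q with 33, 47 and 36 and 19p with 32, 48 and 37. At the other extreme 3p had 1, 2 and 2, 4q had 1, 6 and 2, and 8p had 2 in each list. The median end had 14 WT, 25 deletion and 14 rescue summits. The 5 ends with the most WT summits held 159 of the 584.

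The order of the ends was much the same in each list. Over the 39 ends, Pearson's r of the WT counts was 0.927 with the deletion counts and 0.935 with the rescue counts, and Spearman's rho was 0.907 and 0.895. These points share the assembly and the gene content of each end. The number of protein-coding genes in the window had an r of 0.650 with the WT counts, 0.675 with the deletion counts and 0.632 with the rescue counts.

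**Figure D2:**
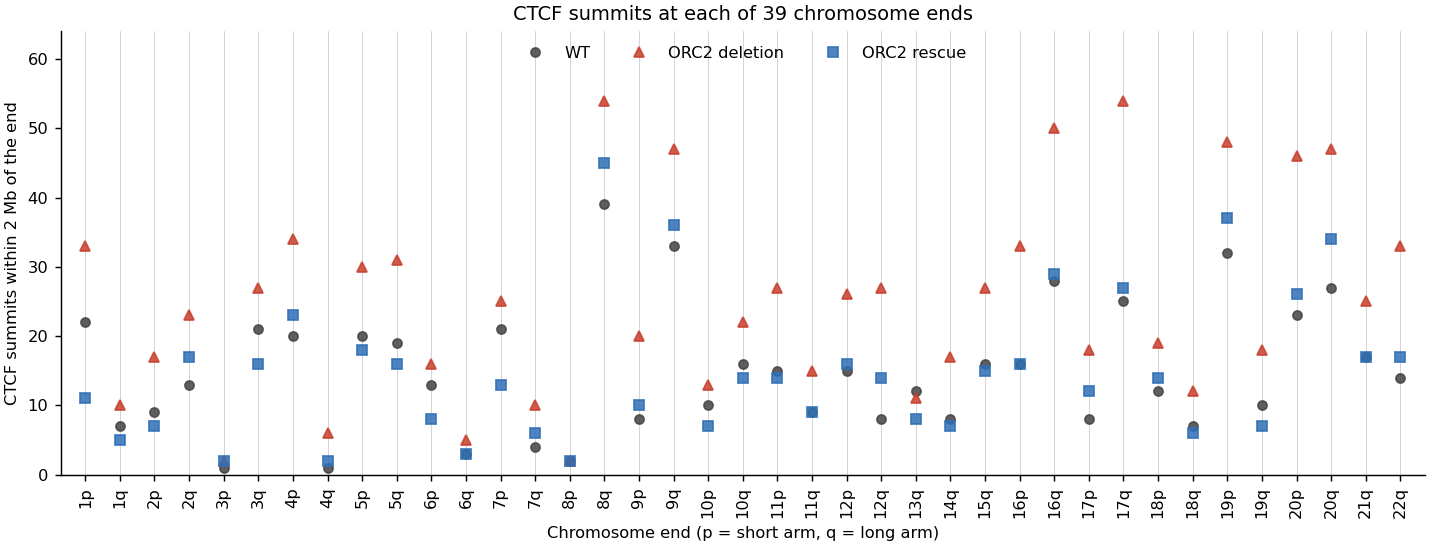
Number of CTCF summits within 2 Mb (vertical axis) at each of the 39 chromosome ends (horizontal axis; p is the short arm, q the long arm) in the WT, ORC2 deletion and ORC2 rescue lists. The deletion list lies above the WT list at 37 ends, where it has from 2 summits at 3p to 54 at 8q and 17q.

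The deletion list had more summits than the WT list at 37 of 39 ends. The exceptions were 8p, with 2 in both lists, and 13q, with 12 in WT, 11 in deletion and 8 in rescue cells. At 12q the WT list had 8 summits, the deletion list 27 and the rescue list 14, a deletion to WT ratio of 3.38. At 17q, which carries TBCD, FOXK2 and DCXR, the counts were 25, 54 and 27. Among the 26 ends with at least 10 WT summits the deletion to WT ratio ran from 0.917 at 13q to 2.36 at 22q, with a median of 1.61. The rescue list exceeded the WT list at 18 ends, fell below it at 16 and equalled it at 5. Its lowest ratio to WT among those 26 ends was 0.5, at 1p, with 22 WT, 33 deletion and 11 rescue summits.

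Summits of different lists were called shared when they lay within 500 bp of each other. Of the 584 subtelomeric WT summits, 502 had a deletion summit (86.0%, 82.9 to 88.5), against 89.9% of other autosomal WT summits, a difference of -3.93 percentage points (-7.01 to -1.30). Fewer had a rescue summit: 391 of 584 (67.0%, 63.0 to 70.7), against 76.9% elsewhere, a difference of -9.95 points (-13.9 to -6.21). Subtelomeric deletion summits had a WT summit in 51.2% of cases (55.0% elsewhere) and a rescue summit in 52.8% (60.3% elsewhere, a difference of -7.51 points, -10.7 to -4.35). Rescue summits had a WT summit in 66.9% (70.2% elsewhere) and a deletion summit in 88.2% (89.9% elsewhere), and the intervals of both these differences include 0. In an alternative, both lists were cut to values of at least 10, so that a partner summit also had to reach 10. The differences were then 0.351 points for WT in rescue (-8.17 to 7.87), -3.25 for WT in deletion (-9.88 to 1.22) and -0.886 for deletion in rescue (-5.99 to 4.43). All these intervals include 0.

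The size of the difference depends on the distance that counts as shared. Within 100 bp, 49.5% of subtelomeric WT summits had a rescue summit, against 51.4% elsewhere, a difference of -1.90 points (-6.01 to 2.21). Within 100 bp of a deletion summit lay 62.3% of subtelomeric and 60.8% of other WT summits, a difference of 1.50 points (-2.57 to 5.40). The gap at 500 bp thus comes from pairs of summits 100 to 500 bp apart, which were rarer near the ends.

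**Figure D3:**
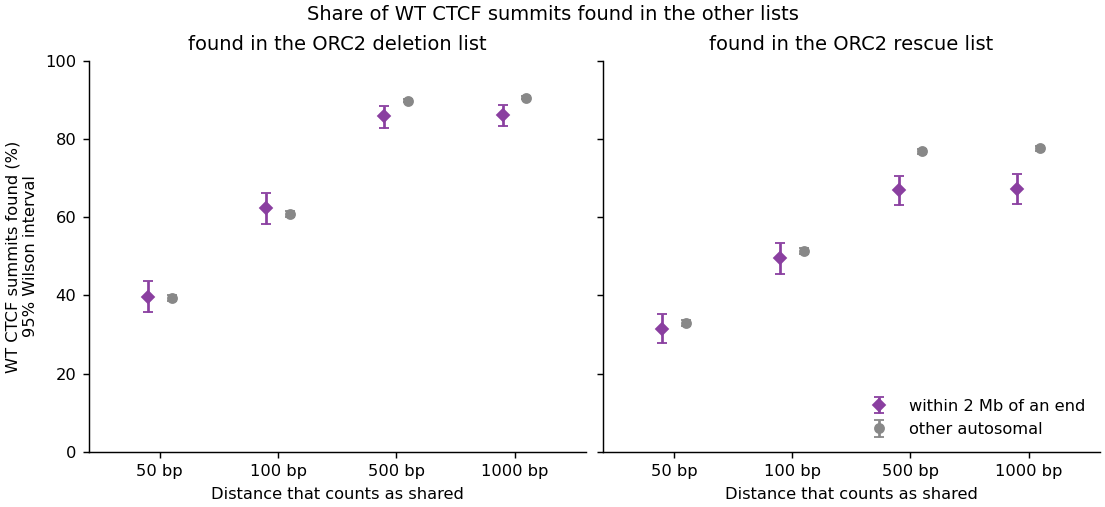
Share of WT CTCF summits (vertical axis, %) with a summit of the ORC2 deletion list (left) or the ORC2 rescue list (right) within 50, 100, 500 or 1000 bp (horizontal axis), for summits within 2 Mb of an end and for other autosomal summits; bars are 95% Wilson intervals. At 500 bp 67.0% of the subtelomeric and 76.9% of the other WT summits are found in the rescue list, while at 100 bp the shares are 49.5% and 51.4%.

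Weak and middling WT summits carried most of the difference from the rescue list. Autosomal WT summits were split by value into 4 classes, from lowest to highest. In class 1, 37.3% of 158 subtelomeric summits and 49.2% of the others had a rescue summit within 500 bp, and in class 2, 58.0% of 143 and 74.5%. In class 3 the shares were 82.3% of 141 and 87.4%, and in class 4, with values from 9.74, they were 93.7% of 142 and 96.5%. The intervals of the differences in classes 3 and 4 include 0. All 142 subtelomeric WT summits of class 4 had a deletion summit, against 99.0% of the others. The interval of that difference (-1.65 to 1.33 points) includes 0.

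The gap was seen both near gene ends and away from them. Among WT summits within 1 kb of a gene start or end, 63.2% of subtelomeric and 72.3% of other summits had a rescue summit, a difference of -9.18 points (-16.8 to -2.15). Among those farther away the shares were 68.5% and 78.0%, a difference of -9.48 points (-14.2 to -5.13).

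The share of WT summits found in the rescue list was lower at 31 of 39 ends than on the rest of the same chromosome, and higher at 8, with a median difference of -13.3 points. It was lowest at ends with very few WT summits, 3p and 4q, where the single WT summit had no rescue partner. Among well-filled ends the largest gap was at 1p, where 8 of 22 WT summits (36.4%) had a rescue summit, against 78.8% of the WT summits on the rest of chromosome 1. At 19q the values were 4 of 10 (40%) and 76.5%, and at 6p 6 of 13 (46.2%) and 72.8%. The opposite was seen at 20q, with 24 of 27 (88.9%) against 77.1%. Leaving out 1p reduced the overall difference from the rescue list to -8.75 points, and leaving out 8q enlarged it to -11.0.

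At 1p the sites without a rescue summit alternated with shared ones. A site 2007 bp outside HES4, the gene of a HES family transcriptional repressor, had 6.13 in WT and 20.2 in the deletion list, with no rescue summit. A site 809 bp outside AGRN, the gene of the basement membrane proteoglycan agrin, was in all lists, with 9.88, 19.02 and 8.87. Sites outside RNF223 (11.9 in WT, 13.1 in deletion) and AURKAIP1 (10.5 and 10.4) again lacked a rescue summit. Further in, a site within CFAP74, an axonemal gene, was in all lists, with 22.9, 57.5 and 32.8. In all, 1p had 11 sites of WT and deletion only, 8 of all 3 lists and 11 of deletion only.

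Joining summits of the 3 lists that lay within 500 bp gave 1116 subtelomeric and 32874 other autosomal sites. All 3 lists held 378 subtelomeric sites (33.9%, 31.1 to 36.7), against 41.1% elsewhere. The deletion list alone held 338 (30.3%, against 27.4%), the deletion and rescue lists 139 (12.5%, against 12.98%), and the WT and deletion lists 125 (11.2%, against 8.22%). The WT list alone held 68 (6.09%, against 4.36%), the rescue list alone 55 (4.93%, against 4.86%), and the WT and rescue lists 13 (1.16%, against 1.13%). The intervals of the differences leave out 0 for sites of all 3 lists (-7.22 points, -9.99 to -4.35), of WT and deletion (2.98, 1.24 to 4.99), of WT only (1.73, 0.453 to 3.31) and of deletion only (2.93, 0.265 to 5.74).

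**Figure D4:**
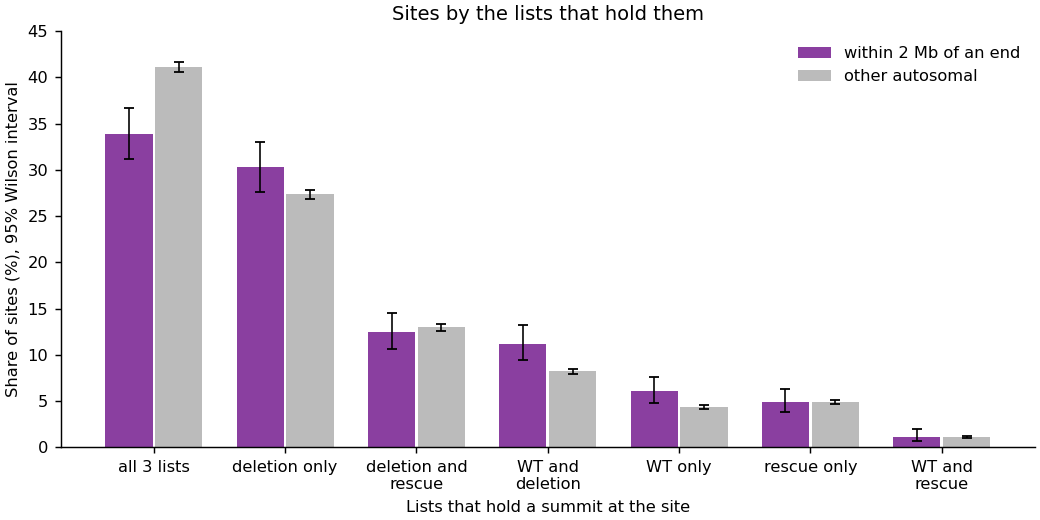
Share of sites (vertical axis, %) by the lists that hold a summit there (horizontal axis), for 1116 sites within 2 Mb of an end and 32874 other autosomal sites; bars start at 0 and whiskers are 95% Wilson intervals. Sites of all 3 lists make up 33.9% near the ends and 41.1% elsewhere, and deletion-only sites 30.3% and 27.4%.

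The values of these classes are given as medians, and no intervals were computed for them. Sites of all 3 lists had median values of 7.62, 13.3 and 8.11 in WT, deletion and rescue cells (7.32, 13.3 and 8.19 elsewhere). Deletion-only sites had a higher median near the ends, 4.84 (quartiles 3.38 and 6.53), than elsewhere, 4.34 (3.07 and 6.17), a difference that was not tested. WT-only sites had a median of 2.75 (2.59 elsewhere) and rescue-only sites 3.32 (3.16 elsewhere). Sites in a single list were thus weaker, by their medians, than sites of all 3 lists.

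The sites that ranked highest in all 3 lists were led by one 23305 bp outside ZFAND2A on 7p, a gene induced by proteotoxic stress, with 59.1 in WT, 91.5 in deletion and 72.7 in rescue cells. A site within SAPCD2 on 9q had 59.4, 76.6 and 53.7. A 5p site at chr5:1168059, near the uncharacterised LOC124900189, had 37.4, 108 and 70.3, the highest subtelomeric value of the deletion list. DCXR on 17q, which encodes a xylulose reductase, followed with 32.7, 43.7 and 36.5. A site 8120 bp outside ADAMTS17 on 15q, a secreted metalloprotease gene, had 48.2, 38.04 and 41.1. On 9q, a site 439 bp outside ABCA2, a lipid transporter gene, had 24.5, 45.5 and 28.2, and one 343 bp outside NPDC1 had 24.1, 48.4 and 36.7. SLC19A1 on 21q, the gene of the reduced folate carrier, had 24.3, 39.2 and 36.2. None of these 8 sites lay in the authors' up or down regions. That follows from their choice as sites of all 3 lists. No subtelomeric up summit had a WT summit within 500 bp, and no down summit a deletion summit.

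Sites found in the deletion list alone reached lower values. The highest was within DPEP1 on 16q, a dipeptidase gene, with 16.7, at the 83.1st percentile of that list. A site 4040 bp outside PLPP2 on 19p, which encodes a lipid phosphate phosphatase, had 16.3, and a site 14063 bp outside CD7 on 17q, the gene of a T cell surface protein, had 16.03. Sites 966 bp outside MAFA (14.4) and within GLI4 (13.6), both on 8q, mark genes of transcription factors. NUBP2 on 16p, with a site 140 bp outside it (13.99), encodes a protein of iron-sulphur cluster assembly, and PDCD6 on 5p (13.8) a calcium-binding protein. A site 1929 bp outside GALNT9 on 12q, the gene of an enzyme that starts O-glycosylation, had 13.4. The 311 deletion-only sites with a protein-coding gene within 50 kb fell on 253 genes, and 208 of these had 1 such site. TBCD on 17q, the gene of a tubulin-folding cofactor, had the most, with 6 of its 8 sites, and GALNT9 had 4 of 5. These genes are long, 193850 and 133218 bp.

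Sites of the WT and deletion lists that were missing from the rescue list included some strong ones. The strongest was within IRF4 on 6p, a lymphoid transcription factor gene, with 27.5 in WT (the 98.0th percentile of the list) and 28.5 in the deletion list. TBCD had such a site with 14.5 and 13.5, ADARB2 on 10p with 14.4 and 9.30, and one 49684 bp outside ADCYAP1 on 18p with 13.2 and 18.4. In the reverse combination, deletion and rescue without WT, a site 3511 bp outside TACC3 on 4p had 22.3 and 17.3, LINS1 on 15q 20.3 and 6.30, one outside AQP12B on 2q 19.3 and 4.96, and PIEZO1 on 16q, a mechanosensitive channel gene, 18.7 and 9.004.

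Sites of a single other list were weaker. The highest WT-only values were 8.87 in ATP8B3 on 19p, 8.47 in the uncharacterised LOC124906255 on 3q, 8.45 outside B4GALNT4 on 11p and 6.62 in AJM1 on 9q. The highest rescue-only values were 8.20 in PSMF1 and 6.92 outside SDCBP2, both on 20p, 6.72 outside DPP7 on 9q and 6.60 in CENPX on 17q. The WT and rescue lists, without the deletion list, shared sites in DGAT1 on 8q (8.97 and 7.85) and TUBB8 on 10p (7.495 and 6.89), and sites outside CHAMP1 on 13q (7.25 and 5.21) and TACC3 (7.15 and 5.45). TACC3, whose product stabilises spindle microtubules, thus had 1 site without a deletion summit and another without a WT summit, 1131 and 3511 bp from the gene.

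For the up and down lists, the authors' regions carry no value. Inside up regions lay 339 of 980 subtelomeric deletion summits (34.6%, 31.7 to 37.6), where over all autosomal deletion summits the share was 30.9%. Elsewhere the share was 30.8%, so the difference was 3.80 points (0.838 to 6.88). That interval rests on the window and the cut-off: it includes 0 with windows of 0.5 Mb (6.28, -0.410 to 13.5), 1 Mb (3.59, -0.700 to 8.14) and 5 Mb (1.84, -0.0301 to 3.76) and with values of at least 10 (1.16, -0.821 to 4.11). It also includes 0 both within 1 kb of a gene start or end (4.64, -1.01 to 10.6) and farther away (3.18, -0.259 to 6.79). None of these 339 had a WT summit within 500 bp and 1 had a rescue summit, and every subtelomeric deletion summit with neither was in an up region. The up list here is thus nearly the deletion-only class again and not a separate measurement. Every end had at least 1 up summit, and 17q had the most, 25, followed by 20p with 19.

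Up summits were weak, with a median of 4.85 against 10.1 for the other subtelomeric deletion summits. With deletion summits split in the same way, 69.4% of subtelomeric and 70.7% of other summits of class 1 were up. In class 2 the shares were 44.7% and 38.6%, in class 3 17.1% and 12.1%, and in class 4 2.73% and 1.73%. The intervals of the differences leave out 0 in classes 2 and 3.

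Inside down regions lay 13 of 584 subtelomeric WT summits (2.23%, 1.31 to 3.77), where over all autosomal WT summits the share was 1.83%. The share elsewhere was 1.82%, and the interval of the difference (-0.535 to 1.964 points) includes 0. None of the 13 had a deletion summit within 500 bp and all had a rescue summit. Of the 328 down summits elsewhere, 5 had a deletion summit and 327 a rescue summit. The down list here is thus nearly the class of WT and rescue sites again and not a separate measurement. The 13 lay at or near DGAT1, TUBB8, CHAMP1, TACC3, MED16, EXD3, CSNK1G2, ZNF7, OR2T11, CAPN10, MAF1 and KISS1R, and 1 had no protein-coding gene within 50 kb.

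The outermost site of any list lay at a median of 139056 bp from the end, from 10840 bp at 11q to 540310 bp at 6q. At 8 ends it lay within 50 kb (11q, 2p, 5p, 13q, 1q, 10q, 19q and 22q), and at 14 within 100 kb. By list, the median outermost summit was at 247147 bp in WT, 170820 bp in deletion and 253705 bp in rescue cells. The deletion list reached further out than the WT list, by more than 500 bp, at 19 ends and less far at 4. The rescue list reached further out than WT at 14 ends and less far at 12. The deletion list was also the longest, and the part of list length in this order was not tested.

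**Figure D5:**
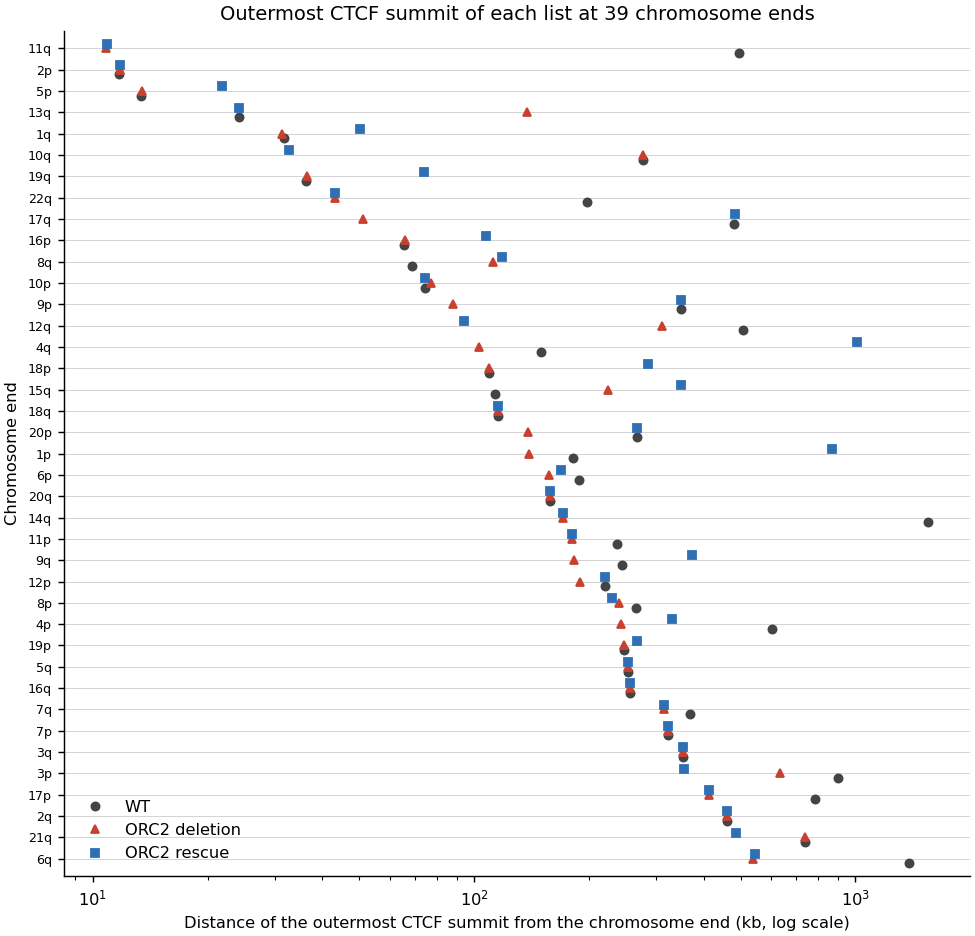
Distance of the outermost CTCF summit from the chromosome end (horizontal axis, kb, log scale) in the WT, ORC2 deletion and ORC2 rescue lists at each of 39 ends (vertical axis, ordered by the outermost site of any list). The outermost site runs from 10840 bp at 11q to 540310 bp at 6q, and the 3 lists coincide at only part of the ends.

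At 2p the outermost site, 11765 bp from the end and 27049 bp outside FAM110C, was in all lists, with 9.04 in WT, 32.5 in deletion and 20.1 in rescue cells. A second 2p site at 18825 bp was also in all lists, with 5.38, 5.60 and 3.48. The outermost 11q site, within the long non-coding RNA gene LINC02684, had 7.10 in the deletion list and 5.21 in the rescue list. At 5p a site at 13397 bp had 5.60 in WT and 9.15 in the deletion list. At 13q the outermost site, at 24195 bp, was in the WT and rescue lists, with 7.25 and 5.21. On 1q, PGBD2, a gene derived from a transposase, held a site 31502 bp from the end with 3.49 in WT and 5.17 in deletion cells, and another at 50001 bp with 19.6, 36.1 and 24.5. The last was the strongest WT site within 100 kb of an end. On 22q a site within RABL2B at 43106 bp had 12.7 in the deletion and 6.22 in the rescue list. The outermost site held all 3 lists at 8 of the 39 ends. How reads that fit several duplicated blocks were placed is not given in the sources used here, and its part in these values was not tested.

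Subtelomeric summits lay near gene ends more often than others, in windows with more genes. Within 1 kb of a gene start or end lay 29.3% of subtelomeric WT summits (25.7 to 33.1), against 19.4% elsewhere, 28.0% of deletion summits against 18.3%, and 28.0% of rescue summits against 17.5%. The differences were 9.89, 9.61 and 10.5 points, and their intervals leave out 0. Inside a protein-coding gene lay 47.8% of subtelomeric WT summits and 47.3% of the others, 49.4% and 49.1% in the deletion list, and 51.0% and 48.4% in the rescue list, with intervals that include 0.

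Gene groups of the windows were described by the summits within 10 kb of each gene. Of all 1257 protein-coding genes there, 516 had a WT summit (41.1%), 685 a deletion summit and 504 a rescue summit. The deletion list had more summits than WT at 394 genes and fewer at 75, and 316 genes (25.1%) had an up summit. The lists below were chosen with earlier results of these data known and are set beside those shares without a test.

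Families of telomere-adjacent repeat genes had few summits. Of 37 members in the windows, 4 had a WT summit (10.8%), 7 a deletion summit and 5 a rescue summit, and 4 had an up summit. All 6 WASH genes and pseudogenes, whose family encodes an actin-nucleating factor, had none within 10 kb, nor had DUX4, the double homeobox gene of 4q. CICP4 on 20q had 4.43, 24.3 and 14.7 in the 3 lists, and TUBB8 had 2 WT, 1 deletion and 2 rescue summits. This list holds pseudogenes, whereas the shares over all genes given above are of protein-coding genes alone. How reads that fit several duplicated copies were placed is not given in the sources used here, and its part in these low counts was not tested.

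A list of 6 genes held 5 linked to telomere maintenance and ZNF276, a zinc finger gene beside FANCA. Of the 6, 2 had a WT, 3 a deletion and 3 a rescue summit, and 1 had an up summit. Among the 5, TERT, the reverse transcriptase of telomerase, and RTEL1, a helicase that unwinds telomere loops, had no summit within 10 kb in any list. POLE, the catalytic subunit of DNA polymerase epsilon, had 1 WT, 2 deletion and 1 rescue summits within 10 kb, with highest values of 7.98, 11.8 and 6.21. Those values belong to the site 3573 bp outside P2RX2. The site within POLE was in the deletion list alone, with 8.86. RAD52, of homologous recombination, had 5.39 and 4.17 in the deletion and rescue lists. A wider list of 24 genes mixes DNA replication and repair with the cell cycle, transcription and protein turnover, for example PSMB1 of the proteasome and POLR2L of RNA polymerase. Of these 24, 13 had a WT summit, 16 a deletion and 14 a rescue summit, and 6 had an up summit. CDT1, the licensing factor that loads the replicative helicase after ORC, had 1 WT, 3 deletion and 1 rescue summits, with highest values of 3.81, 5.99 and 2.72 and 2 up summits. RECQL4 on 8q had 2 in each list, with highest values of 27.0, 25.2 and 16.7.

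The alpha-globin domain on 16p, a textbook locus of CTCF-bounded enhancers, had 7 of its 16 genes within 10 kb of a WT summit, 7 of a deletion summit and 1 of a rescue summit. One site within 10 kb of 4 of these genes, among them HBA1 and HBA2, had 5.60 in WT and 13.98 in the deletion list. Another, in RHBDF1, had 3.32 and 6.17. NPRL3, whose introns hold the enhancers, was the gene with rescue summits, 2 of them, with a highest value of 5.21. No gene of the domain had an up summit. Genes that share a site are not separate counts.

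In the mucin cluster on 11p, listed as 4 mucins with the neighbours TOLLIP and AP2A2, MUC2, the main gel-forming mucin of the colon, and MUC6 had no summit within 10 kb. MUC5AC had 2.22, 9.43 and 3.83. MUC5B had 1.47 in WT and, at another site, an up summit of 4.15 in the deletion list. Of the 6 genes 3 had a WT, 2 a deletion and 1 a rescue summit. The third WT count was TOLLIP, with the same WT value as MUC5B, 1.47. A list of 9 genes for intestinal epithelium, which holds the 4 mucins and also SLC25A22, a mitochondrial carrier gene of broad expression, had 4, 4 and 2 genes with a summit and 3 with an up summit. Of 9 genes listed as interferon-linked, a group that includes SIGIRR and IFITM5, 5, 6 and 4 had a summit in WT, deletion and rescue cells, and 3 had an up summit. ISG15, a ubiquitin-like antiviral protein, had 1, 2 and 1 with highest values of 9.88, 19.02 and 8.87. Those values belong to the site 809 bp outside AGRN. The site 254 bp outside ISG15 was in the deletion list alone, with 3.50. IFITM1, IFITM2 and IFITM5 had the same highest values in the 3 lists (4.765, 8.41 and 8.195), and genes that share a site are not separate counts. IFITM3 had an up summit of 4.48 in the deletion list alone.

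Of 19 genes of developmental transcription factors, 10 had a WT, 11 a deletion and 9 a rescue summit, and 2 had an up summit. SOX18 on 20q had 19.9, 26.4 and 21.1, and FOXC1 on 6p 8.66, 14.4 and 7.26. FOXK2 on 17q had 1, 3 and 1 summits with highest values of 2.02, 16.3 and 4.25. UNCX on 7p had 6.81 in WT and 23.1 in the deletion list and none in the rescue list. Of 9 genes listed for the WNT, NOTCH and TGF-beta pathways, among them CCNL2, a cyclin gene, 5, 6 and 6 had a summit; NOTCH1 on 9q had 2 in each list with highest values of 10.9, 29.1 and 9.83, and DVL1 on 1p had 13.8 and 10.5 in the deletion and rescue lists. Of 21 genes listed for neuronal and haematopoietic cells, among them the broadly expressed CD151, 8, 11 and 8 had a summit and 4 an up summit. PTPRN2 on 7q had 3 deletion summits, all up, with a highest value of 7.45, and none in the other lists.

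Summits lay close to the limit of 2 Mb on both sides. The innermost member of each list lay on 14q, 1997901 bp from the end in WT with a value of 6.79, and with 21.6 in the deletion and 11.2 in the rescue list. The nearest summits outside lay at 2004022 bp on 17q in WT (3.32), 2004037 bp on 16p in the deletion list (16.4) and 2004045 bp on 17q in the rescue list (8.84).

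The IgG lists had no subtelomeric summit, out of 17 autosomal summits in WT, 34 in deletion and 19 in rescue cells. The windows make up 78 Mb, against 2797 Mb of other autosomal sequence, so such short lists say little about background near the ends.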

How the data were processed

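Human HCT116 p53-/- cells were profiled by CUT&RUN with anti-CTCF or IgG. Per the submitters' processing notes, MACS2 and hg38 were used together with Bowtie2 2.2.9, FastQC 0.11.5 and SAMtools 1.12. The treatment of duplicates, of reads that map to several places and of IgG, and the peak settings, were not given in the sources used here. Each summit list holds single bases with a −log10 q value, made by the authors and not scaled between lists. The authors' up and down lists hold region starts and ends alone. Read counts were not used here, so depth is unknown.

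Summits were put on 1-based coordinates, matched within 500 bp (checked on simulated lists) and joined into sites. Shares have 95% Wilson, differences of shares Newcombe and densities exact Poisson intervals, for counting error only. Intervals for medians rest on the ranks of the subtelomeric summits alone, with the median elsewhere taken as fixed. Neighbouring sites are not independent, and no test between genotypes was possible with 1 list each. Genes came from RefSeq GRCh38.p14 (58957 used; 718 entries on other scaffolds left out) and sequences from its 33558 promoters. Sites took the name of the protein-coding gene that holds them or, within 50 kb, lies nearest. Named are the 8 sites highest in all lists, the 8 highest deletion-only sites, the 4 highest of each other class, outermost sites and up to 4 genes per list; others, such as those of 1p and the counts of TBCD, were chosen after their values were seen. The members and the 10 gene lists were chosen with earlier results of these data known. Alternatives changed the window, distance, minimum value, list length, gene distance and comparison sites. The scripts ran on matplotlib 3.10.9, statsmodels 0.14.6, pandas 2.3.3, NumPy 2.4.6, SciPy 1.17.1 and Python 3.11.15.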

Additional observations from a re-analysis of the deposited data

How the results depend on the processing

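Of 136 alternatives, 100 stayed within the interval of the value reported and the others left it. The direction changed in 15: in 8 the interval reported lay to one side of equality, and in 7 it included equality. Of the 95 alternatives to values whose interval lay to one side, 35 had an interval that included equality. The 7 were the deletion to WT quotient (0.961 with values of at least 10, 0.980 with equal list lengths), the rescue density fold (0.993 with values of at least 10, 0.981 at 1 Mb and the 0.5 Mb value below) and the down share (-0.281 with values of at least 10, -0.157 at 5 Mb). Folds are subtelomeric over other density, and points are subtelomeric minus other shares. With windows of 0.5 Mb the density fold was 0.814 in WT, 0.884 in deletion and 0.781 in rescue cells, the down share 2.06 points, and the median −log10 q differed by -0.62 (WT) and -1.35 (rescue); WT summits were found in rescue by -16.5 points, deletion summits in rescue by -12.0 and in WT by -7.88. With 1 Mb the fold was 1.05 in WT and 1.08 in deletion, and the rescue median differed by -0.79. With 5 Mb the rescue fold was 1.19, WT summits found in rescue differed by -3.13 and in deletion by -1.01, and deletion summits in rescue by -3.19. Sharing within 50 and 100 bp gave 0.161 and 1.50 points for WT in deletion, -1.60 and -1.90 for WT in rescue, -0.502 and -0.0328 for deletion in WT, and -2.56 and -3.17 for deletion in rescue. With values of at least 10 the deletion fold was 1.06. With both lists cut in this way, partner summits included, the differences were 0.351 points for WT in rescue, 0.142 for deletion in WT and -0.886 for deletion in rescue. In the 4 classes of WT value, WT in rescue differed by -16.4, -5.15 and -2.84 in classes 2, 3 and 4, and WT in deletion by 0.997 in class 4; the up share differed by -1.33 in class 1 of deletion values. Gene ends within 500 bp gave 5.63, 5.62 and 5.37 points in WT, deletion and rescue. The cause was not tested. Classes of the WT value, summits at 2 to 10 Mb, left-out ends and splits by gene distance were chosen after seeing the data. No paired analysis was possible because no list carries a replicate number, with 1 list per genotype; for the same reason no replicate could be left out.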
